A study of Homo sapiens with 18 samples.

Results

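STA9090 (ganetespib) blocks the chaperone HSP90. It was added to BGT226, an inhibitor of PI3K and mTOR, and the genes that differed between STA9090+BGT226 and BGT226 alone are described here. The material was the human adrenocortical carcinoma line NCI-H295R, which makes steroid hormones, and RNA was sequenced after 48 h of treatment at a stated 20 nM. The comparison used 3 libraries of STA9090+BGT226 and 3 of BGT226, 6 of the 18 libraries in the series, and all genes that passed a filter on counts, 15787 of the 58870 in the table. The other groups were STA9090 alone, untreated cells, STA9090+PIK75 and PIK75 alone, with 3 biological replicates each. PIK75 is another PI3K inhibitor. All groups share 1 cell line, so the results describe that line. How much of each agent went into the combination was not given, nor was a vehicle for untreated cells, so a different amount of BGT226 in the 2 groups compared cannot be told apart from the addition of STA9090.

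HSP90 holds many kinases and receptors in a form that can act, and it keeps the transcription factor HSF1 inactive. When HSP90 is inhibited, HSF1 is released and drives genes of cytosolic chaperones such as HSP90AA1, HSPH1 and the HSP70 and HSP40 families. The endoplasmic reticulum (ER) has its own chaperones, HSPA5 (BiP) and the HSP90 paralogue HSP90B1 (GRP94), whose genes follow the unfolded protein response through ATF6 and XBP1. In adrenocortical cells, STAR, CYP11A1, HSD3B2 and CYP17A1 carry cholesterol through the steps to cortisol and androgens.

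Levels are in CPM, counts relative to the scaled total of a library. A log2 fold change is STA9090+BGT226 over BGT226 and is given with its standard error (SE). A gene was called where p adjusted by the Benjamini-Hochberg method over the 15787 genes in edgeR's quasi-likelihood F-test was under 0.05, and each adjusted p below is from that test. Members of a list named beyond the 4 with the smallest adjusted p were picked after their values were seen. The libraries of STA9090+BGT226 held 12.6, 12.7 and 16.1 M counts, those of BGT226 10.2, 12.5 and 21.1 M. RNA polymerase III transcripts took 35.8% to 38.4% of the counts with STA9090+BGT226 and 33.6% to 35.9% with BGT226. The adrenocortical transcription factor NR5A1 stood at 505 ± 15.8 CPM with STA9090+BGT226 and 537 ± 17.1 CPM with BGT226 (SD, n = 3 each). Other cell types were covered by 17 markers, of fibroblasts, endothelium, leukocytes, chromaffin cells, hepatocytes and basal epithelium. Of these, 4 had enough counts to be tested and 0 were called, with 0 at an unadjusted p under 0.05 and 0 by DESeq2.

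Adding STA9090 to BGT226 raised 156 genes, 0.988% of those tested, and lowered 268 genes, 1.70%. The called changes were small. Of the rises, 145 were under 1 on the log2 scale, with a median of 0.51, and of the falls 254 were under 1 in size, with a median of -0.45. The genes that rose included a few cytosolic chaperones and 2 of 25 genes of steroidogenesis and adrenocortical identity. Another 2 of those 25 fell. Genes that fell also included ER chaperones, the machinery that brings proteins into the ER, MHC class I, replication factors, histones and circadian clock genes. The groups did not overlap in any of the called genes. The calls came from these same libraries, so this adds no support, and uncalled genes such as HSPA8 did not overlap either. The share among all genes tested was not counted. Left out 1 at a time, the libraries cut the rises to 37, 35 and 39 without BGT226 replicates 1, 2 and 3, and to 107, 55 and 51 without STA9090+BGT226 replicates 1, 2 and 3. The falls were cut to 105, 99 and 122 and to 135, 110 and 157 in the same order. DESeq2 called 154 genes higher and 428 lower.

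**Figure D1:**
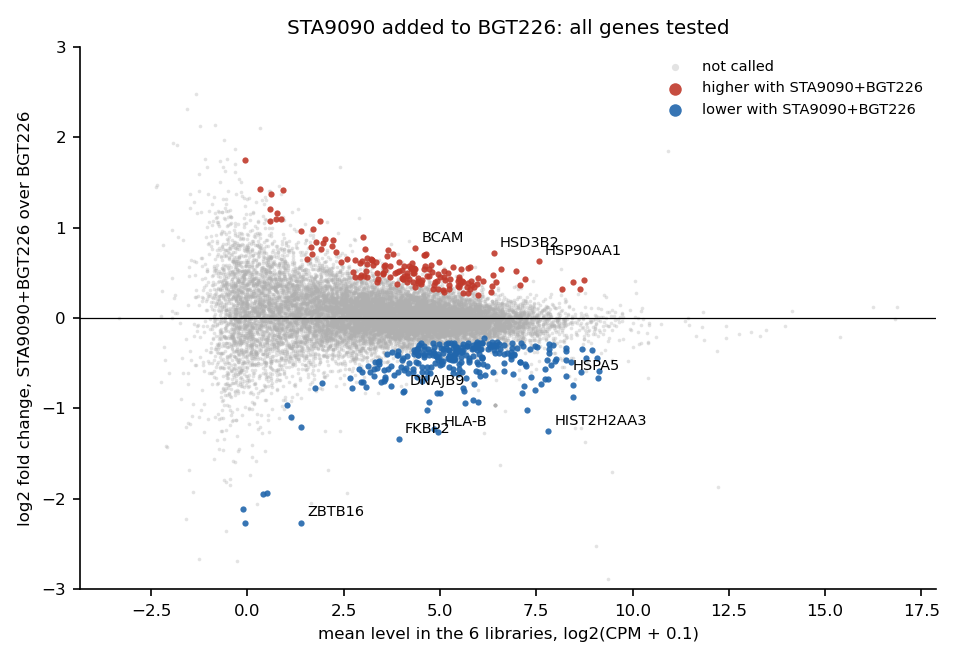
Log2 fold change of STA9090+BGT226 over BGT226 (vertical) against the mean level of the 6 libraries as log2(CPM + 0.1) (horizontal) for each gene tested. Red points are the 156 genes called higher and blue points the 268 called lower, and 32 genes beyond the vertical range, 2 of them called, are not drawn. Most called genes lie within 1 of the zero line, and HLA-B, FKBP2 and HIST2H2AA3 lie below -1.

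Few cytosolic chaperones were called, and most of those rose. Of 24 HSP90 genes and co-chaperones 2 rose and 0 fell, with a median log2 fold change of 0.04. Of 23 HSP70, HSP110 and HSP40 genes 2 rose and 1 fell, with a median of 0.03, and over all genes tested the median was 0.01. In a fit of the 6 compared libraries alone 4 of the 23 rose and 3 fell. HSP90AA1, the inducible cytosolic HSP90 (ENSG00000080824.18, minus strand of chromosome 14, from 102080738 to 102139699), had 212, 250 and 228 CPM with STA9090+BGT226, against 147, 148 and 152 CPM with BGT226. Every combination library lay above every BGT226 library, the log2 fold change was 0.63 (SE 0.0995, adjusted p = 0.00164), and leaving out any 1 library did not end the call. HSPH1, the HSP110 exchange factor of HSP70, had 27.6, 31.5 and 33.3 CPM against 22.3, 19.9 and 21.6 CPM with BGT226. It was 1.45-fold higher without overlap (log2 fold change 0.54, SE 0.123, adjusted p = 0.0209). CHORDC1, an HSP90 co-chaperone, had 11.1, 15.5 and 13.8 CPM against 9.17, 9.73 and 9.599 CPM with BGT226. Its log2 fold change was 0.50 (SE 0.1247, adjusted p = 0.0336). DNAJA1, an HSP40 partner of HSP70, had 51.5, 60.8 and 52.2 CPM against 41.1, 41.7 and 42.1 CPM with BGT226, a log2 fold change of 0.40 (SE 0.105, adjusted p = 0.0469). These 3 calls were less secure than that of HSP90AA1: HSPH1 and CHORDC1 lost theirs in 5 of 6 settings that left out 1 library, keeping it without STA9090+BGT226 replicate 1, and DNAJA1 lost its in all 6, with adjusted p up to 0.111, 0.18 and 0.222.

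Other heat shock genes were not called or fell. HSPA8, the constitutive HSP70, had 690, 660 and 674 CPM with STA9090+BGT226 and 737, 746 and 737 CPM with BGT226. The difference was not called (log2 fold change -0.13, SE 0.0844, adjusted p = 0.464), although the groups did not overlap. HSPA1B, a stress-inducible HSP70, had 298, 285 and 286 CPM with STA9090+BGT226 and 389, 395 and 393 CPM with BGT226. All combination libraries were lower, and the test missed the threshold (log2 fold change -0.44, SE 0.124, adjusted p = 0.0626). The spread in that test came from all 18 libraries. The SD of HSPA1B was 7.52 CPM with STA9090+BGT226 and 3.28 CPM with BGT226. It was 53.2 CPM with STA9090, 46.2 CPM in untreated cells, 21.8 CPM with STA9090+PIK75 and 69.5 CPM with PIK75. HSPA1B and HSPA1A are near-identical copies, so the split of reads between them is uncertain. HSPA2, an HSP70 that is known from the testis, fell with a log2 fold change of -0.35 (SE 0.0707, adjusted p = 0.00969), and HSPB7, a small heat shock protein, with -0.42 (SE 0.092, adjusted p = 0.0174). HSPA2 lost its call without BGT226 replicate 2 or STA9090+BGT226 replicate 2 (adjusted p up to 0.0682), and HSPB7 without replicates 1 or 2 of either group (up to 0.0996). HSP90AB1, the constitutive HSP90, was not called at 0.23 (SE 0.089, adjusted p = 0.182), nor was DNAJB1 at 0.17 or HSPB1 at 0.23. None of 10 chaperonin subunits was called, with 2 at an unadjusted p under 0.05 and 1 by DESeq2.

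Promoters of CHORDC1 and HSPA8 are shown because both hold the same motif while their calls differ. The sequences run from 250 bases before to 50 after the gene's start in RefSeq on GRCh38.p14, in the direction of transcription, and capitals mark the units of a heat shock element, searched on both strands as GAA, TTC and GAA with 2 free bases (NN) between neighbours. Overlapping matches were counted.  CHORDC1 lies at chr11:90223000-90223299 on the minus strand and HSPA8 at chr11:123062087-123062386 on the minus strand.
CHORDC1: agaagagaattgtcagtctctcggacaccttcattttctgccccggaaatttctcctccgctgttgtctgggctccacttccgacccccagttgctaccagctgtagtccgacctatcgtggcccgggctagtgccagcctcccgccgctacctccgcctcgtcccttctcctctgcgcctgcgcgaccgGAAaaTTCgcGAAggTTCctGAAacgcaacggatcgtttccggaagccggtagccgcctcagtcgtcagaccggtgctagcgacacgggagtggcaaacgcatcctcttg
HSPA8: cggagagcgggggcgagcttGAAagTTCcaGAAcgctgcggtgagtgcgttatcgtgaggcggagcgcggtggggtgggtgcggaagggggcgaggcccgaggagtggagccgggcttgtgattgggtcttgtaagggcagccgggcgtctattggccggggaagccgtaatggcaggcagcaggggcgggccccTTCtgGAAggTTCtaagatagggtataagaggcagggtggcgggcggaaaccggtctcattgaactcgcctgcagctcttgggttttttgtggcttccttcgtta
The CHORDC1 window holds 3 overlapping matches and the HSPA8 window 2 separate ones. The same letters stand in 0.49% of 35116 promoters of this length. Promoters were found for 19 of the HSP90 list and 21 of the HSP70, HSP110 and HSP40 list, and the letters stand in 1 and 3 of them. CHORDC1 and DNAJA1 hold a match and rose, HSPA8 and DNAJB6 hold a match and were not called, and HSP90AA1 and HSPH1 rose with 0 matches in this window. Only 1 window per gene was searched, so a gene without a match here may hold the element elsewhere, for example at another start.

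ER chaperone genes fell. Of 22 ER chaperones and unfolded protein response genes, 13 fell and 0 rose, with 0 rises also at an unadjusted p under 0.05 and by DESeq2. Over all genes tested 1.70% fell and 0.988% rose. All 22 had a log2 fold change below 0, with a median of -0.35, while 7565 of the 15787 genes tested were below 0. HSPA5, the main ER chaperone (ENSG00000044574.8, minus strand of chromosome 9, from 125234853 to 125241330), had 237, 232 and 253 CPM with STA9090+BGT226, against 372, 367 and 390 CPM with BGT226. No library of one group came near the other group, and the log2 fold change was -0.65 (SE 0.0755, adjusted p = 9.7e-05). DNAJB9, an ER HSP40 that partners HSPA5, had 13.96, 11.7 and 10.7 CPM against 20.0, 20.6 and 22.4 CPM with BGT226. Its level was 0.571 times that in BGT226 cells (log2 fold change -0.81, SE 0.107, adjusted p = 0.000277). XBP1, a transcription factor of the unfolded protein response, had 33.3, 31.8 and 31.1 CPM against 48.0, 50.4 and 48.4 CPM with BGT226. The fall was 0.61 on the log2 scale (SE 0.0777, adjusted p = 0.000277), again without overlap. SDF2L1, another HSPA5 partner, had 10.1, 9.21 and 10.2 CPM against 17.2, 17.1 and 15.8 CPM with BGT226. Its log2 fold change was -0.75 (SE 0.134, adjusted p = 0.00328).

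The enzymes that form disulfide bonds in the ER and the lectin chaperones of glycoproteins fell as well. P4HB, a protein disulfide isomerase, had 297, 251 and 299 CPM with STA9090+BGT226 and 394, 399 and 393 CPM with BGT226, a log2 fold change of -0.48 (SE 0.0805, adjusted p = 0.00212). PDIA4, PDIA3 and PDIA6 of the same family fell with -0.46, -0.38 and -0.34. HYOU1, the ER exchange factor of the HSP110 family, fell with -0.48, and MANF, a secreted ER stress factor, with -0.44. Calnexin (CANX) and calreticulin (CALR), the lectin chaperones, fell with -0.34 and -0.30, and HERPUD1, which takes part in ER degradation, with -0.31. HSP90B1, the ER paralogue that HSP90 inhibitors also bind, had 125, 137 and 136 CPM with STA9090+BGT226 and 153, 146 and 163 CPM with BGT226. Its groups did not overlap, but the difference was not called (log2 fold change -0.21, SE 0.122, adjusted p = 0.41). The sensors ATF6 and ERN1 (IRE1) were not called, at -0.06 and -0.05. When libraries were left out 1 at a time, 8 to 11 of the list fell. HSPA5, DNAJB9, XBP1, SDF2L1, P4HB, HYOU1, PDIA4 and PDIA6 kept their calls each time. CANX and CALR lost theirs each time (adjusted p up to 0.18 and 0.115), MANF in all but the setting without STA9090+BGT226 replicate 3 (up to 0.113), HERPUD1 without BGT226 replicate 3 or STA9090+BGT226 replicate 2 (up to 0.063) and PDIA3 without BGT226 replicate 3 (0.0561).

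The ER stress element, searched on both strands as CCAAT and CCACG with 9 free bases (N) between them, is the site through which NF-Y and ATF6 are known to drive ER chaperone genes. It is shown in capitals in promoters of HSPA5 and XBP1, which fell, and of HSP90B1, which was not called. The windows are chr9:125241294-125241593 on the minus strand for HSPA5, chr22:28800520-28800819 on the minus strand for XBP1 and chr12:103930160-103930459 on the plus strand for HSP90B1, again from RefSeq on GRCh38.p14.
HSPA5: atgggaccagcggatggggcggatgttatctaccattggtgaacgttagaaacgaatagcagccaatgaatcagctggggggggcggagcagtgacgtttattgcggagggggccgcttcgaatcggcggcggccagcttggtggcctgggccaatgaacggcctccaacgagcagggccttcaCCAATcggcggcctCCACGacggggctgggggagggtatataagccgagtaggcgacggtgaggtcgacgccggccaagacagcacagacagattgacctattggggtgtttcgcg
XBP1: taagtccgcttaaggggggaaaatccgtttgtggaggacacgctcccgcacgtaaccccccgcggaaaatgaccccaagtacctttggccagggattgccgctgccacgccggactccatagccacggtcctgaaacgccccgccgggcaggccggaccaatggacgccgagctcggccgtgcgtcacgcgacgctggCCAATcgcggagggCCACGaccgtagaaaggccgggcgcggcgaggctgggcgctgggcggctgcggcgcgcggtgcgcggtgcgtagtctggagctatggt
HSP90B1: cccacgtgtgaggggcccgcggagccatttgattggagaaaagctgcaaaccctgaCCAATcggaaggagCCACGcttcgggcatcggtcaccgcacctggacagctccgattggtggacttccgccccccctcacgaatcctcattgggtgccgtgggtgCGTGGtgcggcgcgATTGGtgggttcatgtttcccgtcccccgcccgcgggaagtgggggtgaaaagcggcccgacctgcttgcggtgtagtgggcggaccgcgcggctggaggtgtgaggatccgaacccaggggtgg
HSPA5 and XBP1 hold 1 match each, and HSP90B1 holds 2, the second on the opposite strand. The letters stand in 0.0769% of the 35116 promoters, and in 6 of the 21 promoters of the list that were found. Of the 12 found for genes that fell, 4 hold it, those of HSPA5, XBP1, CALR and CANX. HSP90B1 and CRELD2 hold it and were not called. Again only 1 window per gene was searched.

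The machinery that carries new proteins into the ER and glycosylates them also included genes that fell. That list was put together after the values were seen, so its count describes and does not test. Of 37 genes, 16 fell and 0 rose, with a median of -0.27, while 1.70% of all genes tested fell. SSR3, a subunit of the translocon-associated complex, had 48.8, 47.1 and 50.2 CPM with STA9090+BGT226, against 74.1, 72.3 and 72.6 CPM with BGT226. The groups were far apart against their narrow spread (log2 fold change -0.58, SE 0.0758, adjusted p = 0.000277). SEC61A1, the channel through which proteins enter the ER, had 220, 201 and 219 CPM against 303, 295 and 293 CPM with BGT226. It fell by 0.48 on the log2 scale (SE 0.0781, adjusted p = 0.00212). The channel subunit SEC61B fell with -0.54 and SSR2 with -0.46, and SRPRB, a subunit of the receptor for the signal recognition particle, with -0.42. Of the oligosaccharyltransferase, which adds glycans, RPN2 fell with -0.38. SEC61A1, SEC61B, SSR2, SSR3, SRPRB and RPN2 kept their calls whichever library was left out. The count over the list was 6 to 8 in those settings. SSR4 (-0.41), STT3A (-0.37), SRPRA (-0.34), SSR1 (-0.31) and DDOST (-0.27) lost their calls each time, with adjusted p up to 0.146, and RPN1 (-0.31) lost its in 5 of 6 (up to 0.151), keeping it without STA9090+BGT226 replicate 1. Of 36 genes of transport between ER and Golgi, a list also made after the values were seen, 5 fell, among them SEC24D, a coat protein of the vesicles that leave the ER, with -0.65 (SE 0.0868, adjusted p = 0.000277), and 2 to 4 fell with 1 library left out and 11 in a fit of the 6 compared libraries alone.

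**Figure D2:**
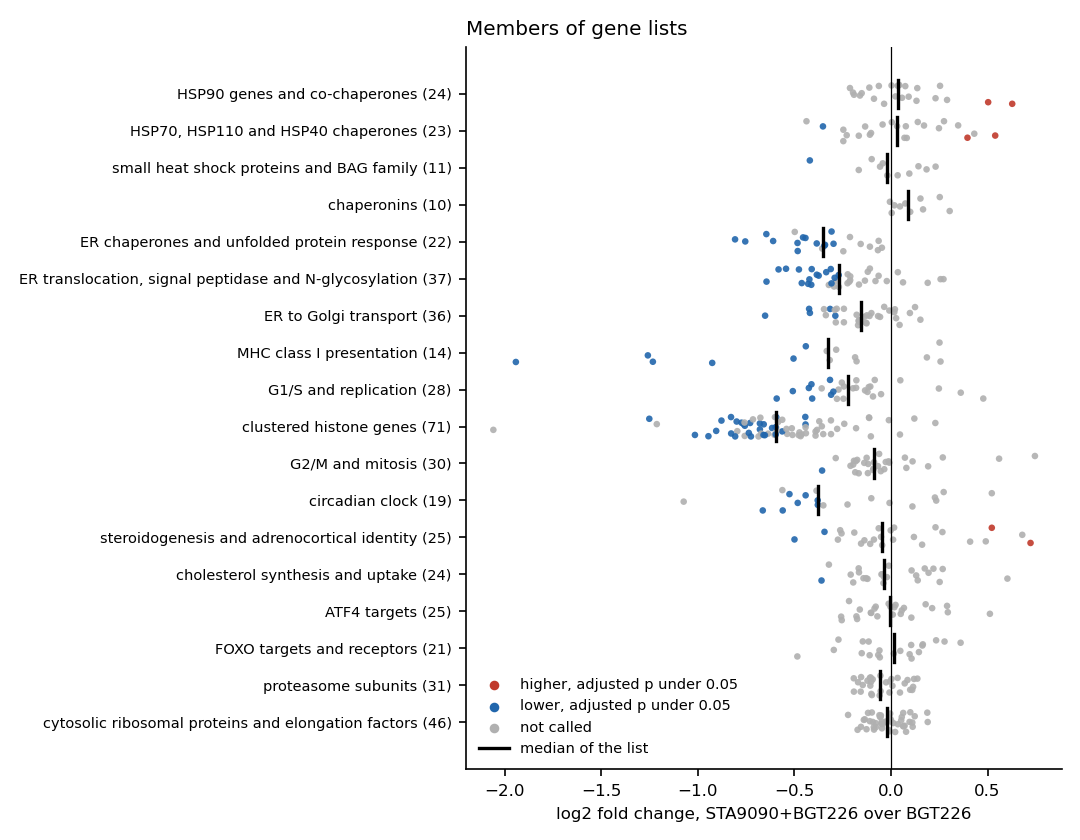
Log2 fold change of STA9090+BGT226 over BGT226 (horizontal) for the members of 18 gene lists, with the number tested in parentheses. Red and blue points passed the threshold, grey points did not, and black bars are list medians. The ER chaperone points all lie left of zero with a median of -0.35, while the proteasome and ribosomal protein points stay close to zero.

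MHC class I genes showed the smallest p-values of the comparison. Of 14 genes of class I presentation 6 fell and 0 rose, with a median log2 fold change of -0.33. Over all genes tested 1.70% fell and 0.988% rose. At an unadjusted p under 0.05 9 of the 14 were lower and 2 higher, and DESeq2 called 5 lower and 0 higher. HLA-C, a class I heavy chain, had 17.0, 19.7 and 14.4 CPM with STA9090+BGT226, against 42.0, 42.0 and 36.1 CPM with BGT226. The combination libraries lay far below the BGT226 libraries (log2 fold change -1.23, SE 0.104, adjusted p = 2.39e-06). For HLA-B (ENSG00000234745.11, minus strand of chromosome 6, from 31269491 to 31357188) the levels were 19.7, 16.4 and 17.9 CPM against 45.8, 43.3 and 40.4 CPM with BGT226, 0.418 times that level, with a log2 fold change of -1.26 (SE 0.113, adjusted p = 3.51e-06). B2M, the light chain shared by all class I molecules, had 112, 129 and 123 CPM against 174, 176 and 168 CPM with BGT226. It fell with -0.51 (SE 0.0856, adjusted p = 0.00234), and being a single gene it does not share reads with the heavy chains. The heavy chains are close copies of each other and vary between genomes, so how reads were divided among them is uncertain. TAP2, a peptide transporter subunit, fell with -0.44 (SE 0.0914, adjusted p = 0.0119), but not without BGT226 replicate 2 or STA9090+BGT226 replicate 1 (adjusted p up to 0.0863). HLA-B, HLA-C and B2M kept their calls whichever library was left out. NLRC5, the transactivator of class I genes, was not called at 0.26 (adjusted p = 0.49). Of 19 interferon response genes 1, OAS3, fell with -0.27 (SE 0.0701, adjusted p = 0.0452), a call that ended whichever library was left out (up to 0.179).

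Several genes of DNA replication fell with STA9090+BGT226. In the list of G1/S and replication genes 8 of 28 fell and 0 rose, with a median of -0.22, and DESeq2 called 11 lower and 0 higher. Over all genes tested 1.70% fell and 0.988% rose. RRM2, a subunit of ribonucleotide reductase (ENSG00000171848.15, plus strand of chromosome 2, from 10120698 to 10131419), had 65.5, 59.99 and 73.8 CPM with STA9090+BGT226, against 102, 98.1 and 100 CPM with BGT226. It was lower in all combination libraries (log2 fold change -0.59, SE 0.093, adjusted p = 0.00156). E2F1, the transcription factor that drives entry into S phase, had 38.6, 36.7 and 36.7 CPM against 53.9, 53.9 and 51.5 CPM with BGT226. Its log2 fold change was -0.51 (SE 0.0906, adjusted p = 0.00328). The replication licensing and helicase factors CDC6 and CDC45 both fell with -0.41. These 4 genes kept their calls whichever library was left out. FEN1 (-0.32), MCM7 (-0.31) and PCNA (-0.30) lost theirs each time (adjusted p up to 0.196), E2F2 (-0.43) in 5 of 6 settings (up to 0.168), keeping it without STA9090+BGT226 replicate 3, and 4 to 5 of the list fell in those settings. In a wider list of 55 origin and fork proteins, made after the values were seen, 14 fell and 1 rose. The rise, of MCM9, lost its call in 12 of 14 alternatives (adjusted p up to 0.208). Among the falls was ORC1, the largest origin recognition subunit, at -0.60 (SE 0.106, adjusted p = 0.00309). With 1 library left out 6 to 9 of the 55 fell. In a fit of the 6 compared libraries alone 23 of the 55 fell, and 13 of the 28 G1/S and replication genes. Of 30 genes of G2/M and mitosis 1 fell, UBE2C with -0.36 (adjusted p = 0.0455), a call that ended whichever library was left out. Outside the list, SPC24, a kinetochore subunit and among the 12 largest falls, had 15.9, 17.5 and 20.5 CPM against 35.1, 33.3 and 34.7 CPM with BGT226 (log2 fold change -0.93, SE 0.143, adjusted p = 0.00131).

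Histone RNA was lower as a whole. The summed level of the histone genes was 12650, 11630 and 12200 CPM with STA9090+BGT226, against 17460, 18560 and 17170 CPM with BGT226. All combination libraries were lower. Of 71 clustered histone genes tested, of 89 in the table, 27 fell and 0 rose, with a median of -0.59, and DESeq2 called 34 lower and 0 higher. Over all genes tested 1.70% fell and 0.988% rose. The list was taken after the values were seen. HIST2H2AA3, an H2A gene, had 140, 133 and 126 CPM with STA9090+BGT226 and 369, 307 and 276 CPM with BGT226 (log2 fold change -1.25, SE 0.213, adjusted p = 0.00235). Histone genes are near-identical copies, so single members are uncertain. They also vary in this series beyond the treatments, since the 3 untreated libraries held 24130, 31570 and 20630 CPM and the 3 STA9090 libraries 20120, 25900 and 31180 CPM. When libraries were left out 1 at a time, 4 to 10 members fell, whichever library it was, and in a fit of the 6 compared libraries alone 60 fell. HIST2H2AA3, HIST1H2BI and HIST2H4A kept their calls each time.

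Gene length moved with this comparison. Of the 3153 genes in the shortest quintile by exonic length 6 rose and 52 fell, while of the 3152 in the longest quintile 80 rose and 35 fell. The median log2 fold change was -0.03 in the shortest quintile and 0.06 in the longest. The difference between long and short genes in a library, as a median log2 deviation, was 0.11, 0.14 and 0.13 with STA9090+BGT226 and 0.07, 0.04 and 0.04 with BGT226, without overlap. The source of this difference was not tested. With a trend on length removed from the fit, a setting chosen after the data were seen, 128 genes rose and 347 fell. In that setting 13 ER chaperone genes, 6 class I genes and 31 histone genes fell, and the calls of CHORDC1, DNAJA1, LAMA5, LAMB1, DMD, MT1X, PCNA and PHLDA1 ended.

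**Figure D3:**
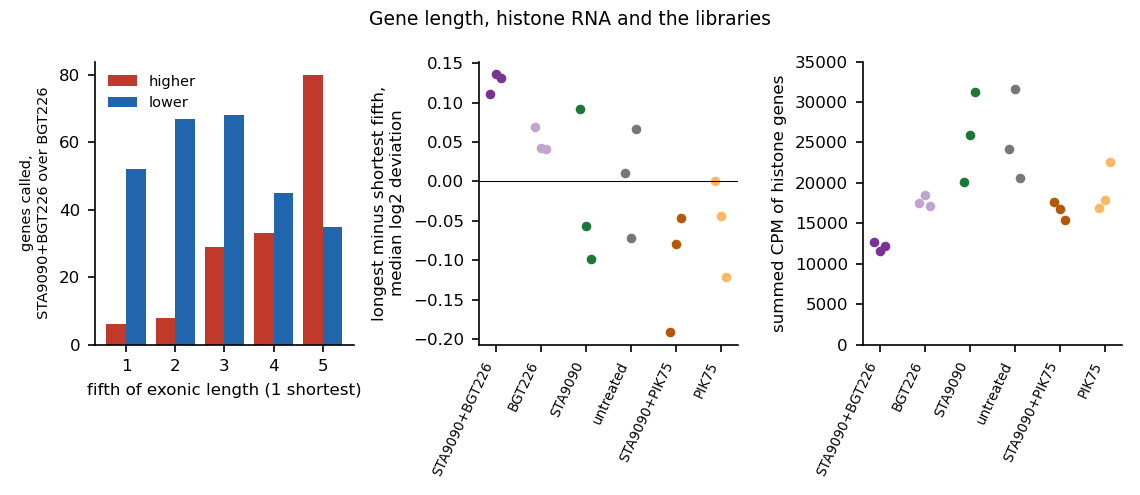
Left, genes called higher (red) and lower (blue) with STA9090+BGT226 over BGT226 in each quintile of exonic length. Middle, the median log2 deviation of the longest quintile minus that of the shortest quintile, and right, the summed CPM of histone genes, with 1 point per library in 6 groups. The STA9090+BGT226 libraries lie above the BGT226 libraries in the middle panel and below them in the right one, at 11630 to 12650 against 17170 to 18560 CPM.

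Steroid synthesis genes moved in both directions. Of 25 genes of steroidogenesis and adrenocortical identity 2 rose and 2 fell, with a median of -0.05. HSD3B2, which makes progesterone and related steroids (ENSG00000203859.10, plus strand of chromosome 1, from 119414931 to 119423035), had 113, 107 and 94.5 CPM with STA9090+BGT226, against 64.2, 64.1 and 62.1 CPM with BGT226. It was 1.65-fold higher (log2 fold change 0.72, SE 0.0955, adjusted p = 0.000277). CYP17A1, whose product leads to cortisol and androgens, had 159, 148 and 140 CPM against 102, 106 and 104 CPM with BGT226. The combination libraries were all above the BGT226 libraries (log2 fold change 0.52, SE 0.0811, adjusted p = 0.00141). STAR brings cholesterol to the enzymes. It had 257, 260 and 259 CPM against 213, 222 and 211 CPM with BGT226. These groups did not overlap, but the test missed the threshold (log2 fold change 0.27, SE 0.0781, adjusted p = 0.0733). CYP11A1, the side-chain cleavage enzyme, was not called at 0.16, nor was NR5A1 at -0.09. CYP19A1 (aromatase), which makes oestrogens, fell with -0.50 (SE 0.129, adjusted p = 0.0427), and AGTR1, the angiotensin receptor, with -0.34 (SE 0.0691, adjusted p = 0.00969). HSD3B2 and CYP17A1 kept their calls whichever library was left out, AGTR1 lost its without BGT226 replicate 1 (adjusted p = 0.0556) and CYP19A1 each time (up to 0.144). By DESeq2 5 of the 25 rose and 4 fell.

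**Figure D4:**
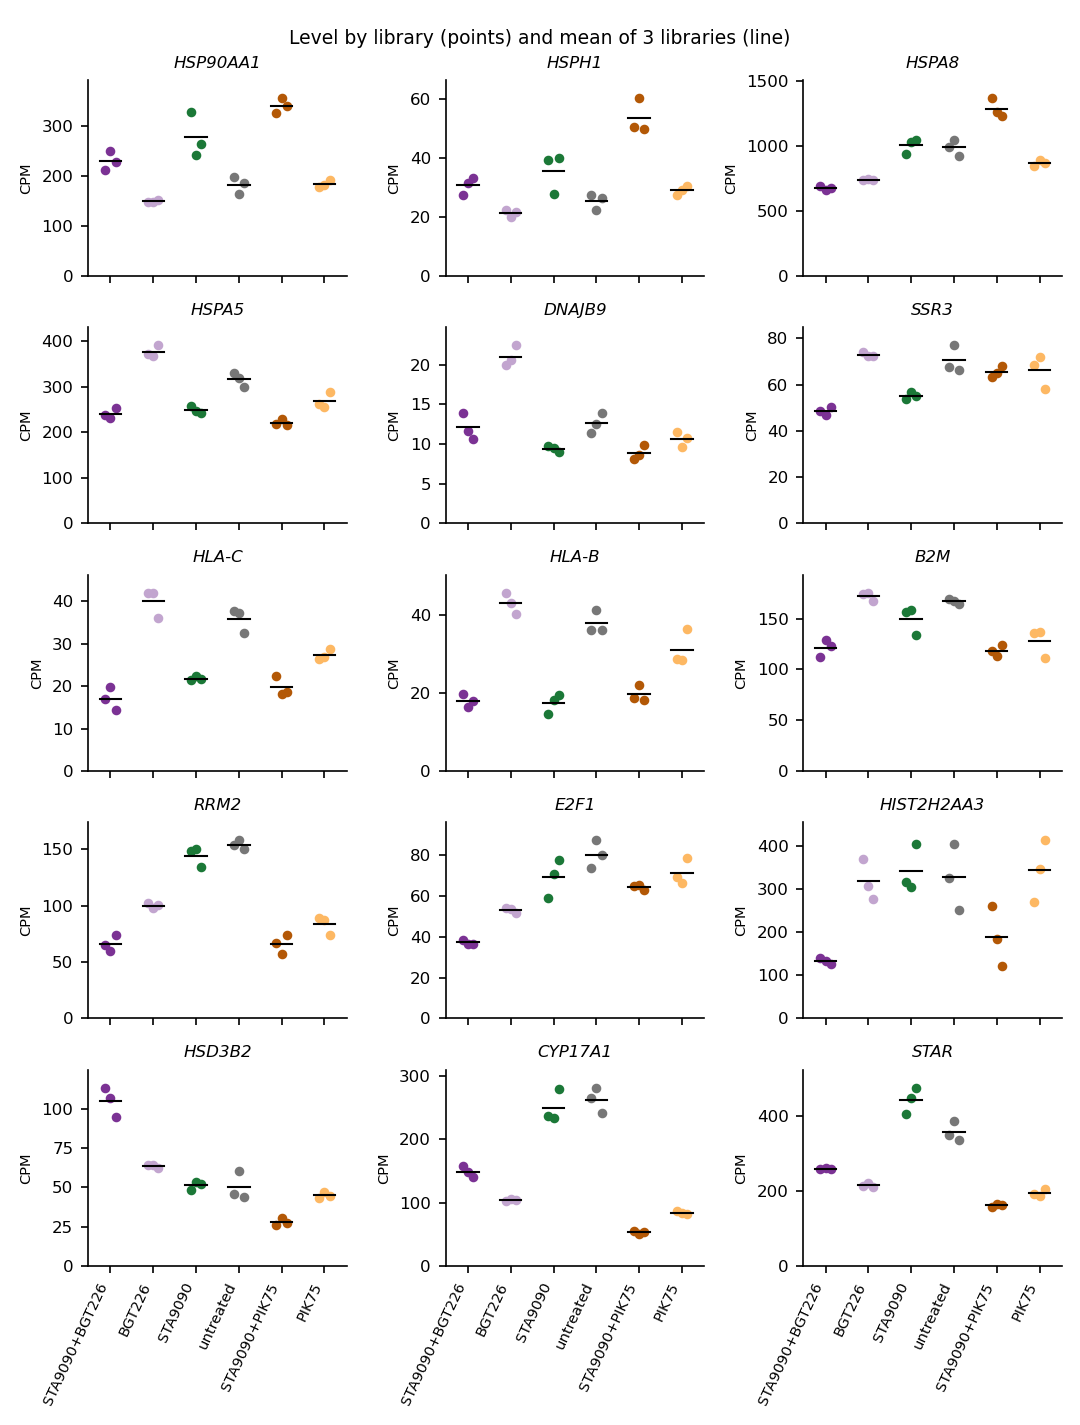
Level in CPM (vertical, from 0) of 15 genes in each library (points) of the 6 groups, with the mean of 3 libraries as a line. HSP90AA1, HSPH1, HSD3B2 and CYP17A1 are higher with STA9090+BGT226 than with BGT226, while HSPA5, DNAJB9, SSR3, HLA-C, HLA-B, B2M, RRM2, E2F1 and HIST2H2AA3 are lower. HSPA8 and STAR were not called.

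Several circadian clock genes fell as well, in a list made after the values were seen. Of 19 genes 7 fell and 0 rose, with a median of -0.38, while 1.70% of all genes tested fell. At an unadjusted p under 0.05 12 were lower and 3 higher, and DESeq2 called 8 lower and 0 higher. Among all 15787 genes tested, 1309 were lower and 1288 higher at an unadjusted p under 0.05. Called or not, 5 of the 19 had a log2 fold change above 0. NR1D1 (REV-ERB alpha), a repressor in the clock, had 37.2, 33.2 and 37.9 CPM with STA9090+BGT226, against 52.4, 53.4 and 53.9 CPM with BGT226 (log2 fold change -0.56, SE 0.0834, adjusted p = 0.000938). The output factors TEF and DBP fell with -0.53 and -0.44, BHLHE40 with -0.48, CIART with -0.66 and CRY2 and BHLHE41 with -0.38 each. The activators ARNTL and CLOCK were not called, both at 0.23. With 1 library left out 2 to 5 of the list fell and 0 to 1 rose. NR1D1 kept its call whichever library was left out. BHLHE40 lost its without BGT226 replicate 3 (adjusted p = 0.0509), DBP without that library or STA9090+BGT226 replicate 2 (up to 0.0649), TEF without BGT226 replicates 1 or 3 or STA9090+BGT226 replicate 2 (up to 0.0766), and BHLHE41 each time (up to 0.109). CIART and CRY2 lost theirs in 4 of 6 settings, CIART without replicates 1 or 3 of either group (up to 0.21) and CRY2 without BGT226 replicates 1 or 2 or STA9090+BGT226 replicates 2 or 3 (up to 0.18).

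Of 15 genes that glucocorticoids are known to induce, a list also made after the values were seen, 4 fell and 0 rose. All 15 had a log2 fold change below 0. Since the members were chosen with the values known, this describes and does not test. Over all genes tested 1.70% fell, and 7565 of 15787 were below 0. ZBTB16 had 1.12, 1.13 and 0.414 CPM with STA9090+BGT226 and 4.73, 3.35 and 4.36 CPM with BGT226. Its log2 fold change was -2.26 (SE 0.332, adjusted p = 0.000857). TSC22D3 (GILZ) fell with -0.47 (SE 0.0835, adjusted p = 0.00328), while FKBP5 was not called at -0.19. Of 5 metallothioneins tested, metal-binding proteins in a list also made after the values were seen, 3 fell and 0 rose, MT2A with -0.40, MT1F with -0.67 and MT1X with -0.34. ZBTB16, TSC22D3, MT2A and MT1F kept their calls whichever library was left out, and MT1X kept its only without STA9090+BGT226 replicate 1 (adjusted p up to 0.234 otherwise).

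The largest changes included genes outside these groups. ABLIM1, an actin-binding protein, had 16.4, 13.8 and 19.6 CPM with STA9090+BGT226, against 33.7, 33.5 and 33.9 CPM with BGT226 (log2 fold change -1.01, SE 0.135, adjusted p = 0.000277). FKBP2, an ER immunophilin, had 7.58, 10.6 and 7.63 CPM against 24.7, 18.8 and 21.8 CPM with BGT226, the largest of the 12 falls at -1.34 (SE 0.298, adjusted p = 0.0187), but its call ended without replicates 1 or 3 of either group (up to 0.0794). BCAM, a receptor for laminin, had 23.8, 27.5 and 25.8 CPM against 14.3, 16.1 and 14.8 CPM with BGT226. It was 1.71-fold higher (log2 fold change 0.77, SE 0.1, adjusted p = 0.000277). The laminin chains LAMA5 and LAMB1 rose with 0.39 and 0.32, and were called with BCAM among 20 genes of matrix and adhesion. LAMB1 lost its call whichever library was left out (adjusted p up to 0.166), and LAMA5 in all settings but that without STA9090+BGT226 replicate 1 (up to 0.119). HMGA1, a chromatin protein, rose with 0.75 (SE 0.1247, adjusted p = 0.00212), the chemokine CCL22 with 0.71 (SE 0.124, adjusted p = 0.00309) and the phosphatase PTPRZ1 with 0.68 (SE 0.126, adjusted p = 0.00462). ABLIM1, BCAM, HMGA1, CCL22 and PTPRZ1 kept their calls whichever library was left out. The remaining rises among the 12 largest were AL513165.2, PROS1 (the anticoagulant protein S), ABCC6, BDP1, GOLGA8A and ZBTB41, with 0.90, 0.87, 0.79, 0.70, 0.70 and 0.66, and each of these calls ended in 4 to 6 of the 6 settings that left out 1 library (adjusted p up to 0.156). The remaining falls were the histone genes HIST1H4D, HIST2H3D and HIST1H2AJ with -1.02, -0.95 and -0.83, which lost their calls in 4, 4 and 6 of those settings. IL4R, the interleukin receptor chain, had 5.34, 7.32 and 4.85 CPM against 3.75, 2.87 and 3.06 CPM with BGT226, and its rise of 0.86 (SE 0.197, adjusted p = 0.0209) ended without BGT226 replicates 2 or 3 or STA9090+BGT226 replicate 2 (up to 0.14).

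Few targets and clients of the drugs were called at the RNA level. Of 22 PI3K, AKT and mTOR pathway genes 0 were called by edgeR, 3 had an unadjusted p under 0.05 in either direction together, and DESeq2 called 0. PIK3CA had a log2 fold change of 0.15 (SE 0.122), MTOR -0.01 (SE 0.0693) and AKT1 -0.13 (SE 0.0865). Of 26 kinases and receptors known as HSP90 clients, EGFR rose with 0.46 (SE 0.108, adjusted p = 0.025) but lost its call whichever library was left out (up to 0.108), and the kinase PIM1 fell with -0.41 (SE 0.0872, adjusted p = 0.0146). PIM1 lost its call without BGT226 replicates 1 or 2 or STA9090+BGT226 replicate 2 (up to 0.0759). Neither IGF1R at 0.05 nor INSR at 0.14 was called, and IGF2, the growth factor that this tumour type overproduces, stood at -0.18 (SE 0.0903, adjusted p = 0.338). In 15 lists no member was called, among them ribosome biogenesis, proteasome subunits, ATF4 and FOXO targets, glycolysis with hypoxia genes, the BCL2 family, cytosolic ribosomal proteins and mitochondrial mRNAs. Over the 310 members of those lists 12 were higher and 24 lower at an unadjusted p under 0.05, and DESeq2 called 1 higher and 7 lower. Among all 15787 genes tested, 1288 were higher and 1309 lower at an unadjusted p under 0.05. Of fatty acid synthesis SCD fell with -0.35, of cholesterol synthesis EBP with -0.36, of WNT targets RNF43 with -0.30 and of NRF2 targets FTH1 with -0.36. These 4 calls ended whichever library was left out, with adjusted p up to 0.194.

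The step with BGT226 was set beside the same step without it, STA9090 against untreated cells, which shares no library with it. STA9090 alone raised 183 genes, 1.16%, and lowered 265, 1.68%. In a fit of those 6 libraries alone 0 rose and 4 fell, whereas the step with BGT226 in a fit of its own 6 libraries had 526 rises and 808 falls. Left out 1 at a time, untreated replicates 1, 2 and 3 left 57, 96 and 56 rises with 146, 141 and 76 falls. Omitting STA9090 replicates 1, 2 and 3 in turn left 32, 123 and 211 rises with 84, 172 and 277 falls. The rises shared 32 genes, 20.5% of those with BGT226 and 17.5% of those without, and the falls 58, 21.6% and 21.9%. None was called in opposite directions, and 134 of the 156 rises and 240 of the 268 falls had the same sign in STA9090 alone. The difference between the steps was itself tested. The step with BGT226 minus the step in untreated cells was called higher for 1 gene, 0.00633%, and lower for 0, 0%. At an unadjusted p under 0.05 the difference was higher for 741 genes and lower for 749, and DESeq2 called 17 higher and 18 lower. The gene called was CLSTN3, a synaptic calsyntenin, at 114.5 ± 9.83 CPM with STA9090+BGT226 and 78.7 ± 3.01 CPM with BGT226, and at 50.02 ± 3.33 CPM with STA9090 and 58.2 ± 1.84 CPM in untreated cells (SD, n = 3 each). Its difference was 0.76 on the log2 scale (SE 0.104, adjusted p = 0.00699), with log2 fold changes of 0.54 with BGT226 and -0.22 without. Left out 1 at a time, untreated replicate 3 or BGT226 replicates 1 or 3 left 0 genes higher.

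For the members described above the steps compare as follows. HSP90AA1 had a log2 fold change of 0.63 with BGT226 and 0.61 in STA9090 alone, and HSPH1 0.54 and 0.50. HLA-B had -1.26 with BGT226 and -1.12 in STA9090 alone, and NR1D1 -0.56 and -0.57. HSPA5 had -0.65 with BGT226 and -0.34 in STA9090 alone, and of the ER chaperone list 13 fell with BGT226 and 3 in STA9090 alone, where HSPA5 averaged 249 ± 7.82 CPM with STA9090 and 316 ± 15.7 CPM in untreated cells. HSD3B2 had 0.72 with BGT226 and 0.03 in STA9090 alone, and the replication list 8 falls and 0 falls. The difference between the steps was not called for any of these genes or lists' members.

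**Figure D5:**
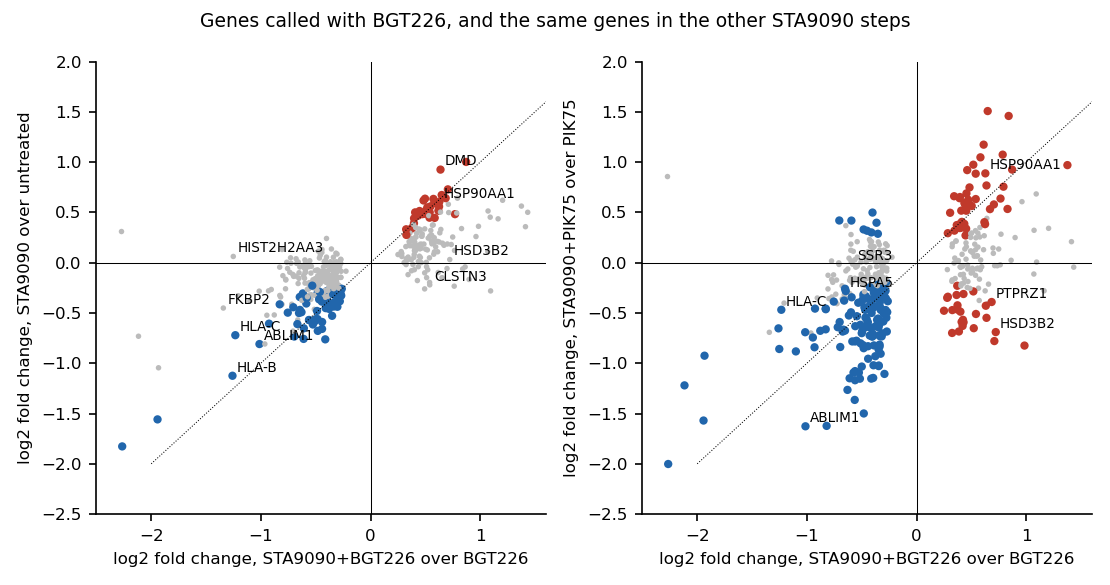
Genes called with BGT226, by their log2 fold change of STA9090+BGT226 over BGT226 (horizontal) and of STA9090 over untreated (left panel, vertical) or STA9090+PIK75 over PIK75 (right panel, vertical). Red (higher with BGT226) and blue (lower) points were called in the other step too, in either direction, grey points were not, the dotted line marks equal changes, and 3 genes outside the range are not drawn in each panel. On the left 134 of 156 rises and 240 of 268 falls keep their sign, and on the right 91 and 213. HSD3B2 and PTPRZ1 are among the rises that lie below zero on the right.

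More genes were called with PIK75 as the partner. STA9090+PIK75 raised 1784 genes over PIK75, 11.3%, and lowered 2209, 14.0%. Of the rises with BGT226 44 rose with PIK75 too, 28.2% of the BGT226 list and 2.47% of the PIK75 list, and 25 fell. Of the falls 133 fell with PIK75 too, 49.6% and 6.02%, and 8 rose. Called or not, 91 of the 156 rises and 213 of the 268 falls had the same sign with PIK75. The step with BGT226 minus the step with PIK75 was called higher for 959 genes, 6.07%, and lower for 580, 3.67%. Without BGT226 replicate 3 these counts were 617 and 379, without BGT226 replicate 2 732 and 374, and without STA9090+PIK75 replicate 1 674 and 357. In all 3 steps 15 genes rose, HSP90AA1, HSPH1, CHORDC1 and DNAJA1 among them, and 51 fell, among them HSPA5, HLA-B, HLA-C, NR1D1, DBP, TEF, CRY2 and AGTR1.

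Fewer heat shock genes rose with BGT226 than with PIK75, and this held for all genes tested, of which 0.988% and 11.3% rose. The difference between the steps was called lower for 3.67% of all genes and higher for 6.07%. Of the 24 HSP90 genes and co-chaperones 2 rose with BGT226 and 12 with PIK75, and the difference between the steps was called lower for 6 and higher for 0. Of the 23 HSP70, HSP110 and HSP40 genes 2 rose with BGT226 and 13 with PIK75, and the difference was called lower for 7 and higher for 0. HSPA8 stood at 674 ± 15.1 CPM with STA9090+BGT226 and 740 ± 5.003 CPM with BGT226, and at 1286 ± 73.7 CPM with STA9090+PIK75 and 870 ± 23.1 CPM with PIK75 (SD, n = 3 each). Its steps differed by -0.70 (SE 0.119, adjusted p = 0.000829). HSPA1A differed by -0.93 and the co-chaperone STIP1 by -0.62. For HSP90AA1 the difference was -0.26 and was not called (SE 0.14, adjusted p = 0.263).

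HSD3B2 and CYP17A1 rose with BGT226 as the partner and fell with PIK75. HSD3B2 averaged 105 ± 9.52 CPM with STA9090+BGT226 and 63.5 ± 1.178 CPM with BGT226, and 27.7 ± 2.17 CPM with STA9090+PIK75 and 44.8 ± 1.95 CPM with PIK75 (SD, n = 3 each). It rose by 0.72 with BGT226 and fell by 0.69 with PIK75, a difference of 1.41 (SE 0.141, adjusted p = 5.47e-06). CYP17A1 rose by 0.52 with BGT226 and fell by 0.65 with PIK75, a difference of 1.17 (SE 0.116, adjusted p = 5.38e-06). Of the 25 steroidogenic genes 2 fell with BGT226 and 19 with PIK75, and the difference was called higher for 14 and lower for 0. Over all genes tested 1.70% fell with BGT226 and 14.0% with PIK75, with the difference higher for 6.07% and lower for 3.67%. STAR and CYP11A1 differed by 0.53 and 0.70. HLA-B and HLA-C fell with both partners and by more with BGT226, HLA-C by a difference of -0.76 (SE 0.149, adjusted p = 0.00249). This did not hold for the class I list as a whole. Of its 14 genes 6 fell with BGT226 and 8 with PIK75, with medians of -0.33 and -0.43. The difference between the steps was called lower for 4 of the 14 and higher for 2. SSR3 had -0.58 with BGT226 and -0.02 with PIK75, a difference of -0.57 (SE 0.107, adjusted p = 0.00188).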

How the data were processed

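Bulk RNA of 18 libraries, 3 in each of 6 groups, was sequenced. The authors deposited unnormalized expected counts for each gene and library in a single table. Per the labels' protocols, ribosomal RNA was depleted and stranded paired-end libraries were made. The submitters' processing notes list bcl2fastq 2.20, cutadapt 1.18, STAR 2.7.0f, RSEM 1.3.1 and hg38. Neither the annotation release nor the strand setting of counting was given in the sources used here, so for genes that overlap or resemble each other the division of reads is uncertain. The series' design text calls the replicates biological. Whether they were separate cultures was not given, so p-values measure the spread between these libraries.

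Rounding to integers moved no library's sum by more than 0.000381%. Filtering used filterByExpr in edgeR 4.0.16 under R 4.3.3 (minimum count 10, minimum total 15), and TMM factors lay between 0.9034 and 1.132. One model with a mean for each of the 6 groups was fitted to all libraries (biological coefficient of variation 10.58%), and contrasts were tested by the quasi-likelihood F-test with Benjamini-Hochberg adjustment. The SE was obtained by dividing the absolute log2 fold change by the root of F. Library sums ran from 10.24 to 21.13 M.

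Gene positions and types came from GENCODE 29, where 99.54% of the IDs were found with versions ignored, and promoters from RefSeq on GRCh38.p14, by symbol. For each symbol the first window listed was used. The comparison, the 32 gene lists and the rule for named genes were chosen with earlier results of these data known, and 7 further lists were made after the values of this comparison were seen. The rule took the 12 largest rises and 12 largest falls among called protein-coding genes that averaged at least 5 CPM in the higher group, up to 4 members of each list by adjusted p, genes tied to the drugs and tumour, the 4 highest and 4 lowest differences between steps, and the largest rise and fall that were not protein-coding. The alternatives were RLE scaling, no filter, a stricter filter, DESeq2 1.42.0, a fit of the compared groups by themselves, a replicate block, omission of the 50 genes with most counts, omission of each library in turn, and removal of a length trend, which was added after the data were seen. One gene that the rule names is not reported here.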

Additional observations from a re-analysis of the deposited data

Results flagged for a closer look

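Each gene below was picked out because the step from BGT226 to STA9090+BGT226 differed from another STA9090 step in a test of that difference (edgeR, adjusted p under 0.05). Against the step in untreated cells CLSTN3 differed by 0.76 on the log2 scale. All other differences are against the step from PIK75 to STA9090+PIK75, where a positive value means a higher log2 fold change with BGT226.

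The heat shock genes differed by these log2 values: HSPA8 -0.70, HSPA1A -0.93, HSPA1B -0.56, HSPA2 -0.64, HSPB1 -0.67, HSPB7 -0.58 and STIP1 -0.62. The ER chaperone and unfolded protein response genes differed by these log2 values: HSPA5 -0.36, DNAJB9 -0.55, XBP1 -0.43, P4HB -0.42, MANF -0.55 and ATF4 -0.40. The ER translocation and glycosylation genes differed by these log2 values: SSR3 -0.57, SSR4 -0.62, SEC61B -0.51, SRPRA -0.46, SRPRB -0.46 and DDOST -0.37. The MHC class I and interferon genes differed by these log2 values: HLA-B -0.61, HLA-C -0.76, B2M -0.39 and OAS3 -0.44. Among all 14 class I presentation genes the difference was called lower for 4 and higher for 2. The replication genes differed by these log2 values: CDC6 -0.58, CDC45 -0.71 and ORC1 -0.72. The steroid genes differed by these log2 values: HSD3B2 1.41, CYP17A1 1.17, CYP11A1 0.70, STAR 0.53 and AGTR1 0.68. The clock genes differed by these log2 values: NR1D1 0.61, TEF 0.57 and CLOCK 0.40. The matrix and signalling genes differed by these log2 values: LAMA5 1.07, LAMB1 0.51, IGF1R 0.44 and PHLDA1 0.35. The metallothionein MT2A differed by -0.44. Under the rule for named genes, the 4 highest differences were COL1A1 2.76, FAM166B 2.0, CUX2 1.95 and SHH 1.82. The 4 lowest were ZNF418 -1.79, IFITM10 -1.35, SLC35F2 -1.23 and FOSB -1.21. Of the other named genes the differences were DMD 1.19, HMGA1 0.61, PTPRZ1 1.08, RF00100 -4.44, GNAO1 0.74 and ZBTB41 0.87. With groups of 3, no single library was tested for standing apart from its group. Causes were not tested.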

How the results depend on the processing

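Of 98 named genes called for STA9090+BGT226 against BGT226, none changed sign under any alternative, the RLE and top-gene scalings included, while the uncalled MTOR, IGF1R, CUX2, IFITM10 and SLC35F2, close to 0, did. Calls ended for 4 of the 98 with RLE, 6 with no filter, 12 with the replicate block, 9 with the length trend removed and 34 to 50 with 1 library left out. For STA9090+BGT226 against BGT226, 156 higher and 268 lower genes became 348 and 479 with no filter, 526 and 808 in a fit of those 6 libraries alone, and 154 and 428 by DESeq2. Leaving out a library gave 35 to 107 higher and 99 to 157 lower. RLE gave 130 and 309, the strict filter 171 and 274, the 50 most counted genes left out 143 and 315, and the length trend removed 128 and 347. For STA9090 against untreated cells, 183 and 265 became 369 and 400 without a filter and 0 and 4 in a fit of those libraries alone, and leaving out a library gave 32 to 211 and 76 to 277. For STA9090+PIK75 against PIK75 the range was 1300 to 1496 and 1776 to 1929. For the step with BGT226 minus the step in untreated cells, 1 and 0 became 82 and 187 without a filter and 17 and 18 by DESeq2, and leaving out a library gave 0 to 3 in each direction. Against the PIK75 step the range was 617 to 874 and 357 to 566. The causes were not tested, beyond there being fewer samples in the left-out settings.

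Same-numbered libraries of the 2 groups did not deviate together, with correlations of -0.203, -0.056 and -0.256 over 10447 genes, so the numbers were not taken to pair samples. With the replicate number as a block 125 genes were higher and 229 lower, and 13 ER chaperone, 6 class I and 19 histone genes fell. Low counts limit ZBTB16, whose libraries lay under 5 CPM.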

Other observations

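Genes with the highest and lowest differences between the steps were set side by side, after the rule for named genes. COL1A1, a fibrillar collagen chain, had 7.18, 7.55 and 9.22 CPM with STA9090+BGT226 and 7.98, 9.09 and 8.90 CPM with BGT226, and 0.625, 0.662 and 1.11 CPM with STA9090+PIK75 and 5.97, 4.57 and 7.44 CPM with PIK75. Its log2 fold change was -0.11 with BGT226 and -2.87 with PIK75. SHH, the secreted ligand sonic hedgehog, had -0.32 with BGT226 and -2.14 with PIK75, and the homeobox gene CUX2 0.10 and -1.85. FOSB, an immediate early transcription factor, had 0.21 with BGT226 and 1.43 with PIK75, and the transporter SLC35F2 0.01 and 1.23. None of these 5 genes was called in the step with BGT226.

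Small RNA genes RNU6-16P and RF00100 were the called genes with the largest rise and fall outside protein-coding genes, at low levels. RNU6-16P had 0.797, 0.83 and 1.182 CPM with STA9090+BGT226, against 0, 0 and 0.139 CPM with BGT226. RF00100 had 2.15, 0 and 0 CPM with STA9090+BGT226, against 14.4, 5.18 and 12.2 CPM with BGT226. With 1 library left out, RNU6-16P lost its call without BGT226 replicates 1 or 2 or STA9090+BGT226 replicate 3 (edgeR adjusted p up to 0.0629), and RF00100 without BGT226 replicates 1 or 3 or STA9090+BGT226 replicates 2 or 3 (up to 0.068). Over the alternatives the fitted log2 fold change ran between 3.23 and 6.64 for RNU6-16P and between -10.17 and -3.34 for RF00100. GNAO1, a G protein subunit, had 21.7, 22.1 and 24.2 CPM with STA9090+BGT226 and 29.6, 29.7 and 31.2 CPM with BGT226, without overlap, and its fall of -0.41 (edgeR adjusted p = 0.0202) was lost in 5 of 6 settings that left out 1 library (up to 0.0914).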
